A study of Mus musculus with 10 samples.

Results

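A set of 40 genes of mitosis and G2 phase was followed through a series of RNA sequencing experiments in C2C12 cells, a mouse myoblast line that divides in growth medium and leaves the cell cycle to fuse into myotubes when serum is lowered. The members were chosen for their known roles in G2 and mitosis, and all 40 were found among the 23388 genes listed in all 4 tables of the series. They fall into 9 roles, which are cyclins and Cdk1 with its activators (7 genes), mitotic kinases (4), spindle checkpoint and APC/C genes (5), kinesins (6), centromere and kinetochore genes (5), chromosomal passenger subunits (2), spindle assembly genes (4), cytokinesis genes (3), and chromosome structure genes with the proliferation antigen Mki67 (4).

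The tables compare Huwe1 knockdown with control in growth medium (day 0), after 6 days in differentiation medium (day 6) and after 8 days (day 8 myotubes), and USP10 overexpression with control at day 6. Huwe1 is an E3 ubiquitin ligase and USP10 a deubiquitinase. The study asked how protein levels of the TATA-box binding protein (TBP) are regulated during muscle differentiation. RNA sequencing was used there to profile cells in which either enzyme had been changed. The controls of day 0 and day 6 are labelled wildtype, and the day 8 control is labelled non-targeting RNA, although the header of its table names it wtD8. Knockdown cells carry an shRNA delivered by lentivirus under drug selection, and by the study's methods myotubes were infected after differentiation had begun. The labels give one pair of hairpins for day 0 and day 6 and another pair for day 8, whereas the methods give only the latter pair, for myoblasts and myotubes alike. USP10 cells are a stable line with the cDNA driven by the EF1a promoter. In each Huwe1 table, 1 control library faces a column that pools 2 knockdown libraries, while the USP10 comparison has 1 library and 1 control column. There is thus 1 value per condition, no replicate spread and no test, and each difference below compares those columns.

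Mitotic genes form one of the best known waves of periodic transcription. Their products are made in G2, drive chromosome condensation, spindle assembly, segregation and abscission, and many are destroyed by the APC/C ubiquitin ligase as cells leave mitosis. In quiescent and differentiated cells the DREAM complex, built on the MuvB core, holds their promoters silent, and in dividing cells B-Myb (Mybl2) and Foxm1 join MuvB there to switch them on. MuvB complexes bind the cell cycle genes homology region (CHR), and NF-Y binds the CCAAT boxes that often lie near it. Postmitotic myotubes are a classic case of lasting silence of these genes, so their RNA is often used as a marker of dividing cells. In bulk RNA, fewer dividing cells and less RNA per dividing cell cannot be told apart.

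Promoters are shown because most members differed in the same direction within a comparison. RefSeq promoter sequences of mouse build GRCm38.p6 were at hand for 33 of the 40 members, with 34 promoters in all. Those of 5 members are printed over the 250 bases before the annotated start, 5′ to 3′ on the strand of the gene, with CCAAT boxes (CCAAT or ATTGG) and CHR letters (TTTGAA or TTCGAA, or TTCAAA on the other strand) in capitals. Top2a (chr11:99024190-99024439, minus strand), encoding the topoisomerase that decatenates sister chromatids, holds the densest set of matches. Mki67 (chr7:135716380-135716629, minus strand), Cdk1 (chr10:69352913-69353162, minus strand) and Ccnb2 (chr9:70421555-70421804, minus strand) are a marker of dividing cells, the mitotic kinase and its cyclin B2 partner. Anln (chr9:22389207-22389456, minus strand), encoding the cytokinetic ring protein anillin, is shown as a contrast with no match in these bases.
Top2a: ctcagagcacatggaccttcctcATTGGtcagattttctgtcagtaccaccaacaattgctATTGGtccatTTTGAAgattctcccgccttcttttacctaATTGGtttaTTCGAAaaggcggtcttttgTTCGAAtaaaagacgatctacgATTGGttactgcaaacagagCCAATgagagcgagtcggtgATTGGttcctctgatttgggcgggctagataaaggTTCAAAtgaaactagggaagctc
Mki67: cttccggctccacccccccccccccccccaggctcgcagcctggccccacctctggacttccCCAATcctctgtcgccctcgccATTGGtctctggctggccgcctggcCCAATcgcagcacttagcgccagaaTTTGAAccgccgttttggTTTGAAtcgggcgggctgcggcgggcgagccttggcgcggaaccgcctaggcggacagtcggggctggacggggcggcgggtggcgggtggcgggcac
Cdk1: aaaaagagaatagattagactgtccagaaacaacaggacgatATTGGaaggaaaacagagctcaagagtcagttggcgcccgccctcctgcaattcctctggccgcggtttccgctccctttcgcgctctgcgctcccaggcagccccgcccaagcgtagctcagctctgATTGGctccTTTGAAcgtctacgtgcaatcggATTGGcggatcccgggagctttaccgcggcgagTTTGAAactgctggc
Ccnb2: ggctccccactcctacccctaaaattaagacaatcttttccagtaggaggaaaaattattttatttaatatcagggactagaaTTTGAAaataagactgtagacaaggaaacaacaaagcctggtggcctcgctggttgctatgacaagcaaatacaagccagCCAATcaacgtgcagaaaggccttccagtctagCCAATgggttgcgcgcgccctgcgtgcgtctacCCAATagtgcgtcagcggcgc
Anln: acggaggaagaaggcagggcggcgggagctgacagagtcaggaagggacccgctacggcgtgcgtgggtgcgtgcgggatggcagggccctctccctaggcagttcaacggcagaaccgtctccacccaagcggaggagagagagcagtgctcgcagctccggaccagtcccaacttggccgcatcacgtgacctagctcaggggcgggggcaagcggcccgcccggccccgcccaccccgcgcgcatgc

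In these 250 bases the Top2a promoter had 6 CCAAT boxes and 4 CHR matches, while the Mki67 and Cdk1 promoters each had 3 and 2 and the Ccnb2 promoter 3 and 1. The 3 CCAAT boxes of Ccnb2 began 87, 54 and 21 bases before the start. Among the 34 member promoters, 25 (73.5%) held at least 1 CCAAT box, counted on both strands and with overlapping matches allowed, against 33.8% of all 32851 promoters in the table, and 18 (52.9%) held at least 2 against 10.1%. CHR letters were found in 12 member promoters (35.3%) against 17.1% of all promoters. This share depends on the window, because with the 50 bases after the start included it was 26 of 34 (76.5%) against 19.2%, so 14 member promoters had CHR letters only there or across the start. The E2F-type letters TTCCCGC were found in 0 of 34 member promoters against 3.82% of all promoters, and in 27.9% of the 43 promoters of S phase genes. Such matches describe letters in a window and are not measured binding sites.

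**Figure D1:**
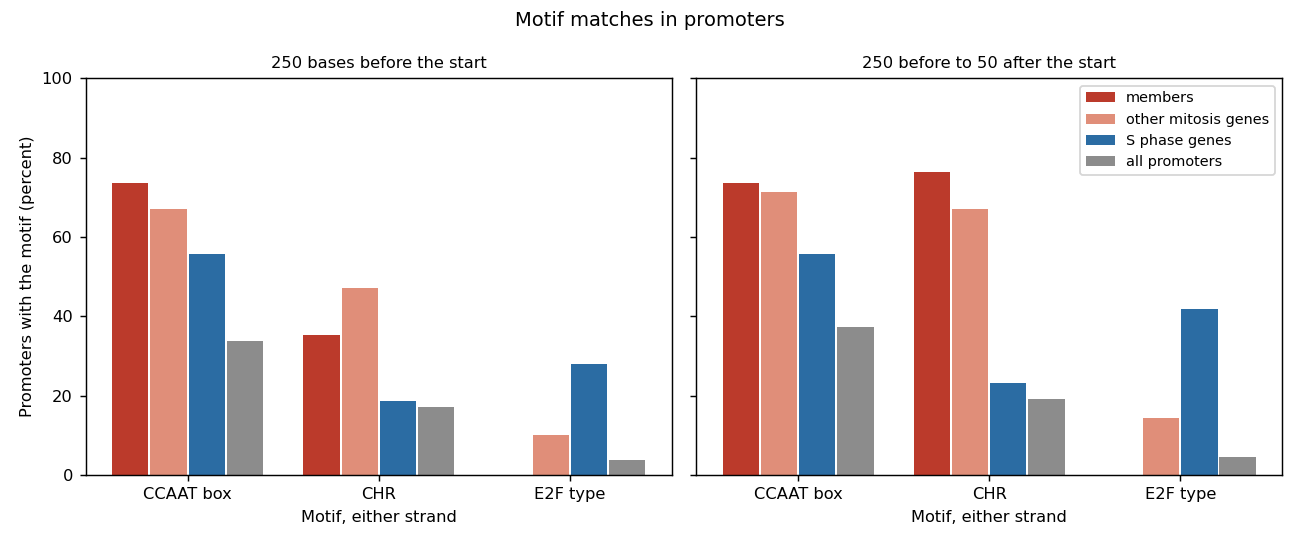
Share of promoters (percent) with a CCAAT box, CHR letters or E2F-type letters on either strand, in the 250 bases before the start (left) and in the whole window of 300 bases (right), for 34 member promoters, 70 promoters of other mitosis genes, 43 promoters of S phase genes and all 32851 promoters. The CCAAT share of the members was 73.5% in both windows, and the CHR share was 35.3% on the left and 76.5% on the right.

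The expression values are FPKM as the authors made them, that is, fragment counts divided by transcript length and by library size. Read totals were not used here. From the spacing of the lowest FPKM values, the day 0, day 6 and day 8 controls were estimated at 22100000, 29900000 and 18200000 fragments. The control of the USP10 table was estimated at 7820000 and the USP10 library at 27700000. No estimate was made for the pooled knockdown columns. In FPKM, with the control before the treated column of each pair here and below, Huwe1 read 38.3 and 15.2 at day 0, 35.1 and 21.9 at day 6, 55.4 and 33.0 at day 8, and 44.7 and 41.0 in the USP10 table. Usp10 read 68.5 and 64.2 at day 0, 13.2 and 35.4 at day 6, 14.5 and 13.1 at day 8, and 10.3 and 38.3 in the USP10 table. Myog, the myogenic factor of differentiating muscle, read 0.164 FPKM in the day 0 control, near 0, against 619 in the day 6 control. Gapdh, a housekeeping enzyme, ranged from 389 to 845 FPKM over the 8 columns.

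In growth medium every member was well expressed, and in differentiated controls all were lower. The median member read 64.1 FPKM in the day 0 control, with a range of 27.8 for Bub1 to 287 for Birc5, and all 40 exceeded 10 FPKM there. In the day 6 control the median was 0.645 FPKM, only 15 members reached 1 FPKM, and 35 were under 5% of their day 0 level. The day 8 control, by contrast, had a median of 14.1 FPKM, with 31 members at 10 FPKM or more. Since the 4 tables were normalized separately, levels set across them are descriptions.

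Knockdown and control columns did not keep one order. The median member read 69.1 FPKM in the day 0 knockdown, 2.29 in the day 6 knockdown and 1.83 in the day 8 knockdown. In the USP10 table the control median was 1.59 FPKM, and that of the overexpressing cells 1.30. The day 6 and day 8 knockdown columns were thus close to each other in level, at a median of 3.57% and 2.87% of the day 0 control, while the controls they were compared with stood at 1.08% and 21.0%. Bub1, a spindle checkpoint kinase, was the lowest member in all 8 columns, and no member was listed at 0 in any column. Summed over the members, expression was 3309.7 FPKM in the day 0 control, 76.8 in the day 6 control and 749.6 in the day 8 control.

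**Figure D2:**
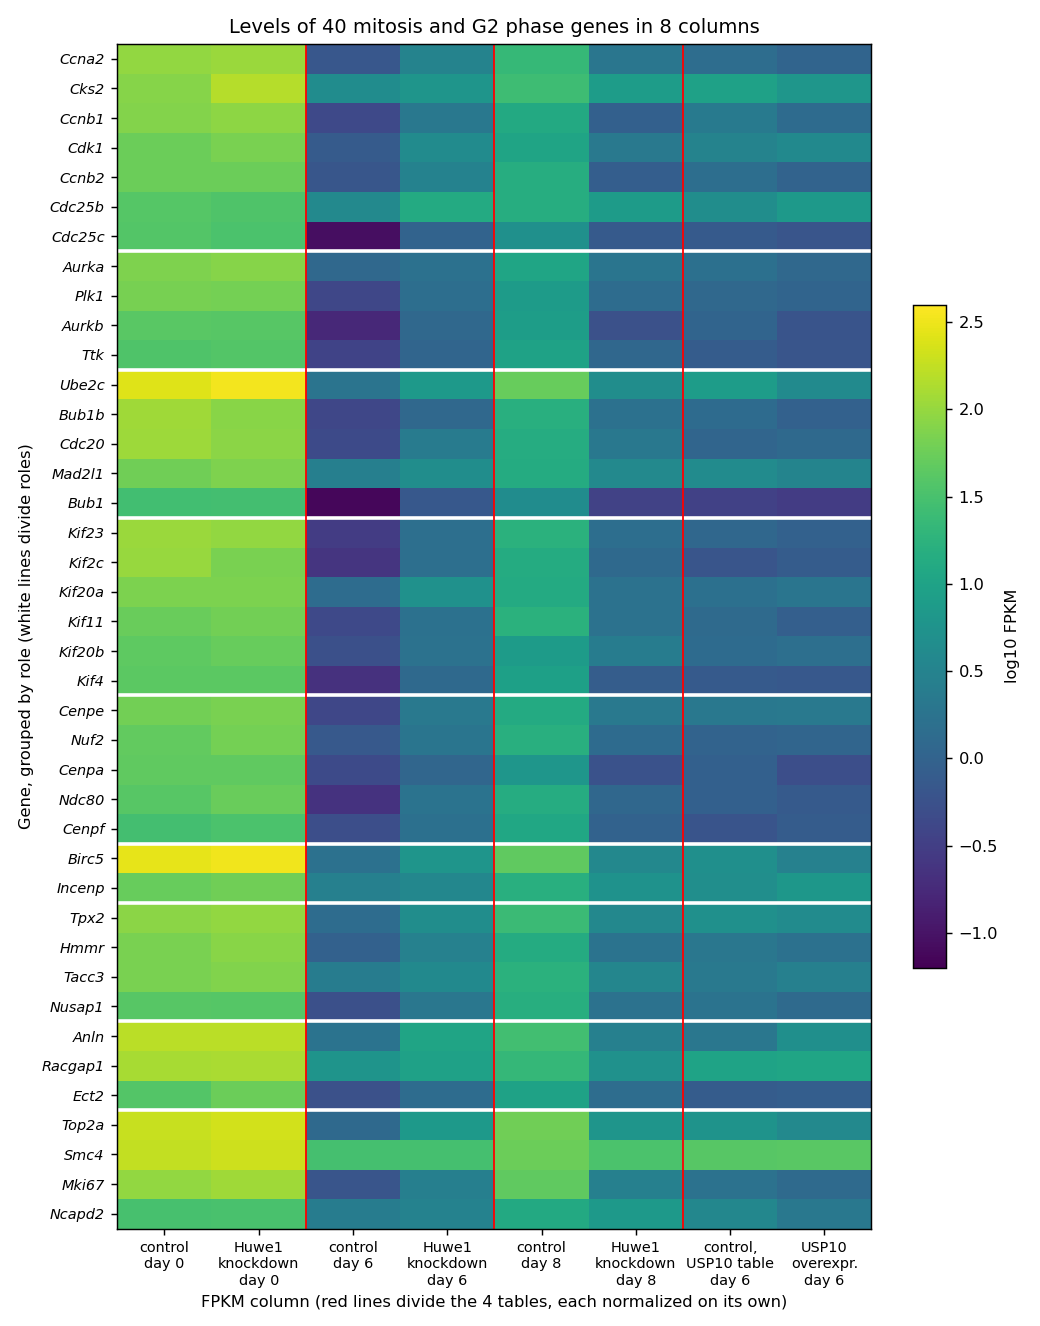
Level of each of the 40 members (rows, grouped by role, colour on a log10 FPKM scale) in the 8 columns, with red lines between the 4 separately normalized tables. The day 0 columns hold the highest value of every member, the day 8 control is the highest of the 6 columns in differentiation medium for all 40, and the day 6 control is the lowest of the 8 columns for 36.

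At day 0, the mitotic genes differed little between Huwe1 knockdown and control. None of the 40 members was at least 2-fold lower or at least 2-fold higher, where 1.69% of the 10874 genes with at least 1 FPKM in a column were lower by that much and 1.90% higher. The median log2 ratio of knockdown to control was 0.14, against 0.00 for all genes, with 28 members above 0. The highest were Cks2 (0.88, 80.4 to 148 FPKM), a small Cdk-binding protein, the cytokinesis gene Ect2 (0.51) and the kinetochore gene Nuf2 (0.40). Lowest were the microtubule-depolymerizing kinesin gene Kif2c (-0.59, 104 to 68.9 FPKM), the checkpoint gene Bub1b (-0.46) and the APC/C activator gene Cdc20 (-0.31).

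At day 6, mitotic genes were higher in Huwe1 knockdown than in control, from a very low base. Of the 39 members that reached 1 FPKM in a column, 31 were at least 2-fold higher and 0 at least 2-fold lower, against 17.6% and 13.4% of 11695 genes. However, 24 of the 39 reached 1 FPKM in the knockdown only, so that for these the minimum itself fixed a higher knockdown value. Without the minimum, 32 of all 40 members were at least 2-fold higher, and of the 15 members with at least 1 FPKM in both columns, 7 were. The median log2 ratio was 1.86 over the 39 members, against -0.01 for all genes, and 0.72 over those 15. With 1 FPKM added to each value in place of 0.01, 17 of the 39 were at least 2-fold higher.

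The largest log2 ratio at day 6 belonged to Cdc25c (3.38, 0.0876 to 1.01 FPKM), a phosphatase that activates Cdk1, and it was the only member at least 8-fold higher, where 4.73% of all genes were. Its control value rests on about 5 fragments, with an exact Poisson interval of 1.62 to 11.7 at 95% that covers counting error only. Next were Ndc80 (2.89), a kinetochore gene, and Aurkb (2.72), the kinase of the chromosomal passenger complex. Smc4, a condensin core subunit, was the only member not above 0 (-0.01), followed by the condensin gene Ncapd2 (0.29) and Incenp (0.34). Bub1 stayed under 1 FPKM in both columns, at 0.0737 and 0.701.

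At day 8 the direction was the opposite, and all 40 members were lower in Huwe1 knockdown myotubes than in control myotubes. Of the 40, 37 were at least 2-fold lower, against 10.0% of 11755 genes, and 21 were at least 8-fold lower, against 1.73%. None was higher, where 7.89% of all genes were at least 2-fold higher. The median log2 ratio was -3.09, against 0.00 for all genes. The lowest ratios were those of Ccnb2 (-4.07, 14.7 to 0.869 FPKM), Mki67 (-4.05, 46.7 to 2.82 FPKM) and Aurkb (-3.88, 8.36 to 0.559 FPKM). The 3 members within 2-fold were Smc4 (-0.76), Ncapd2 (-0.90) and Cdc25b (-0.98), another activating phosphatase of Cdk1. All 40 reached 1 FPKM in the control, and 8 of them did so there only.

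With USP10 overexpression at day 6, most members were within 2-fold of the control in the same table. Of 31 members past the minimum, 1 was at least 2-fold higher and 0 at least 2-fold lower, against 9.70% and 10.0% of 11482 genes. The median log2 ratio was -0.29, against 0.05 for all genes, and 12 of the 31 were above 0. However, 4 of the 31, Aurkb among them, reached 1 FPKM in the control only, so for these the minimum itself fixed a lower value. With at least 1 FPKM in both columns, the median over 27 members was -0.23. Anln was the one 2-fold higher (1.28, 1.99 to 4.85 FPKM), followed by Cdc25b (0.55) and Incenp (0.43). Lowest were the APC/C ubiquitin carrier gene Ube2c (-0.94), Aurkb (-0.78) and Ncapd2 (-0.77). The other members above 0 were Cdk1, Cdc20, Kif20a, Kif20b, Cenpe, Nuf2, Tacc3, Racgap1 and Smc4, with log2 ratios from 0.03 to 0.40.

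**Figure D3:**
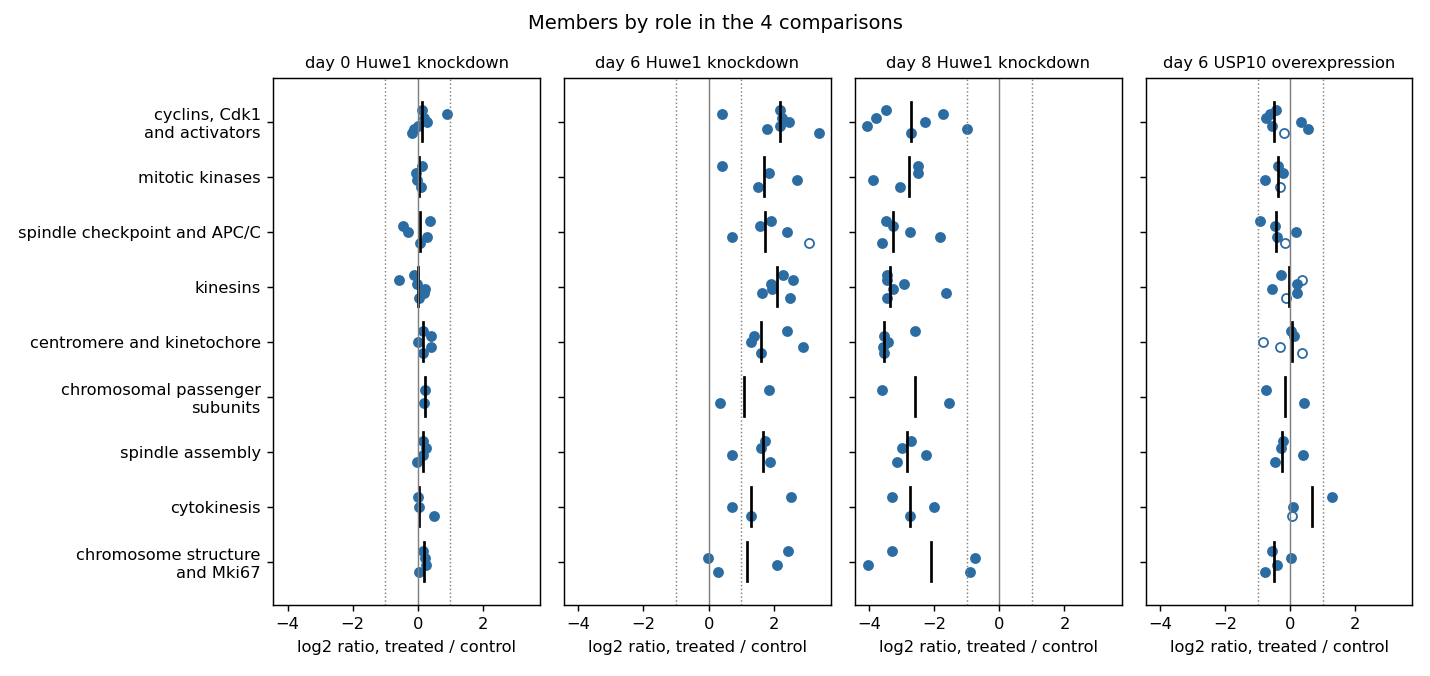
Log2 ratio of treated to control FPKM (0.01 added) for each member, by role, in the 4 comparisons. Filled points reached 1 FPKM in a column and open points did not, black bars are medians of the filled points, and dotted lines mark 2-fold. The median member stood at 0.14, 1.86, -3.09 and -0.29 from left to right.

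All 7 genes of the cyclins and Cdk1 with its activators were higher in the knockdown at day 6 and lower at day 8. At day 0 and with USP10 they went either way. Only 2 of the 7, Cks2 and Cdc25b, reached 1 FPKM in the day 6 control. For the others the minimum itself fixed a higher knockdown value. Ccnb1, encoding cyclin B1, read 78.9 and 90.3 at day 0, 0.432 and 2.11 at day 6, 12.9 and 0.930 at day 8, and 2.21 and 1.32 in the USP10 table. Cdk1, encoding the mitotic kinase that the B cyclins activate, read 56.3 and 68.7 at day 0, 0.768 and 4.29 at day 6, 10.6 and 2.14 at day 8, and 3.12 and 3.97 in the USP10 table. At day 8, Ccnb1 was 13.7-fold and Cdk1 4.92-fold lower in the knockdown than in control.
Ccna2 (cyclin A2) and Ccnb2 had ratios much like Ccnb1, at 2.19 and 2.18 at day 6 and -3.48 and -4.07 at day 8. Cdc25b had the highest day 6 knockdown level of the 7 genes, 13.3 FPKM against 3.82 in the control. The locus listed for Cdc25b is 41.3 times as long as its GENCODE gene, so what this level counts is uncertain. The 7 genes had a median log2 ratio of 2.19 at day 6 and -2.71 at day 8, with Cks2 (0.41) the lowest at day 6.

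All 4 mitotic kinase genes were at least 2-fold lower in the day 8 knockdown (10.0% of all genes), and 3 were at least 2-fold higher at day 6 (17.6%). These 3 reached 1 FPKM at day 6 in the knockdown only, so the minimum itself fixed a higher knockdown value. Aurka alone reached 1 FPKM in both day 6 columns. Plk1, encoding the polo-like kinase that acts from mitotic entry to cytokinesis, read 65.9 and 63.7 at day 0, 0.411 and 1.51 at day 6, 7.81 and 1.37 at day 8, and 1.23 and 1.05 in the USP10 table. Aurkb read 42.2 and 41.7 at day 0, 0.174 and 1.20 at day 6, 8.36 and 0.559 at day 8, and 1.07 and 0.619 in the USP10 table. In both genes the day 8 control was the highest column in differentiation medium, and the USP10 library lay between the 2 day 6 controls. Aurka, the spindle pole kinase, differed from Aurkb at day 6, with log2 ratios of 0.42 and 2.72. Ttk, the Mps1 checkpoint kinase, had 1.52 at day 6 and -3.05 at day 8.

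In the checkpoint and APC/C group, Bub1b, encoding the BubR1 inhibitor of the APC/C, read 115 and 83.3 at day 0, 0.404 and 1.23 at day 6, 16.0 and 1.65 at day 8, and 1.35 and 0.968 in the USP10 table. Cdc20, encoding the APC/C activator that the checkpoint holds back, read 109 and 88.4 at day 0, 0.443 and 2.38 at day 6, 14.1 and 2.10 at day 8, and 1.11 and 1.27 in the USP10 table. Ube2c read 258 and 337 at day 0, 1.80 and 6.83 at day 6, 52.3 and 4.67 at day 8, and 7.88 and 4.12 in the USP10 table. All 3 were at least 2-fold higher at day 6 (17.6% of all genes) and at least 2-fold lower at day 8 (10.0%). Bub1b and Cdc20 were under 1 FPKM in the day 6 control, so for these the minimum itself fixed a higher knockdown value. The day 6 knockdown of Bub1b and Ube2c was below the control of the USP10 table. The GENCODE exons of Ube2c share 22.8% of their bases with Tnnc2, the fast skeletal troponin C gene on the opposite strand. The listed locus of Ube2c is only 0.333 times as long as that GENCODE gene, and whether fragments were counted by strand is not stated. How much of the overlap was counted is thus not known, and Ube2c is uncertain in differentiated cells. Mad2l1, the checkpoint protein Mad2, had 0.71 at day 6 and -1.83 at day 8.

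All 6 kinesins were at least 2-fold higher at day 6 (17.6% of all genes), with log2 ratios from 1.64 (Kif20b) to 2.60 (Kif2c). All 6 were at least 2-fold lower at day 8 (10.0% of all genes). Only Kif20a reached 1 FPKM in the day 6 control, so for the other kinesins the minimum itself fixed a higher knockdown value. Kif11, encoding the motor that pushes spindle poles apart, read 53.2 and 62.0 at day 0, 0.429 and 1.66 at day 6, 16.7 and 1.72 at day 8, and 1.32 and 0.898 in the USP10 table. Kif23, encoding the central spindle motor of cytokinesis, read 106 and 97.6 at day 0, 0.302 and 1.53 at day 6, 16.7 and 1.50 at day 8, and 1.16 and 0.949 in the USP10 table. The 4 other kinesin genes had day 6 control levels of 0.216 (Kif4), 0.243 (Kif2c), 0.540 (Kif20b) and 1.37 FPKM (Kif20a). Kif20a shares 29.3% and Kif4 15.1% of exon bases with a neighbour on the other strand, Cdc23 and Pdzd11.

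At centromeres, Cenpa, the histone H3 variant that marks them, read 47.5 and 47.6 at day 0, 0.457 and 1.14 at day 6, 6.22 and 0.577 at day 8, and 0.929 and 0.522 in the USP10 table. Cenpf, a large kinetochore protein of G2 and mitosis, read 29.5 and 33.0 at day 0, 0.516 and 1.58 at day 6, 11.8 and 0.991 at day 8, and 0.621 and 0.801 in the USP10 table. None of the 5 centromere and kinetochore genes reached 1 FPKM in the day 6 control, and all 5 did in the knockdown. The minimum itself thus fixed a higher knockdown value for each of them. Their median log2 ratio at day 8, -3.54, was the lowest of the 9 roles, with Ndc80 (-3.57), Nuf2 (-3.54) and the kinetochore motor gene Cenpe (-2.60) beside them.

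The passenger subunits differed from each other. Birc5, encoding survivin, read 287 and 334 at day 0, 1.66 and 5.99 at day 6, 46.5 and 3.80 at day 8, and 4.87 and 2.91 in the USP10 table. Incenp, the scaffold of the complex, read 52.4 and 60.3 at day 0, 2.88 and 3.66 at day 6, 16.0 and 5.42 at day 8, and 4.81 and 6.49 in the USP10 table. Birc5 had ratios like those of most members, whereas Incenp kept 2.88 FPKM in the day 6 control, had a log2 ratio of 0.34 at day 6, and was -1.56 at day 8.

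For spindle assembly, Tpx2, encoding the activator and spindle anchor of Aurora A, read 87.9 and 97.9 at day 0, 1.37 and 4.61 at day 6, 24.3 and 3.70 at day 8, and 5.02 and 4.27 in the USP10 table. Hmmr, Nusap1 and Tacc3, which encode microtubule-associated proteins of the spindle, had log2 ratios of 1.60, 1.88 and 0.71 at day 6. At day 8 these were -2.98, -3.13 and -2.26. Hmmr and Nusap1 were under 1 FPKM in the day 6 control (0.968 and 0.541), so for these the minimum itself fixed a higher knockdown value.

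For cytokinesis, Anln read 159 and 159 at day 0, 1.80 and 10.5 at day 6, 28.2 and 2.86 at day 8, and 1.99 and 4.85 in the USP10 table. It was 1 of 3 members to reach 10 FPKM in the day 6 knockdown, with Smc4 and Cdc25b, and was higher in the treated column of both day 6 tables. The listed locus is over 2 times as long as the GENCODE gene for 5 members, which are Cdc25b (41.3 times), Kif20a (6.13), Anln (5.84), Ccna2 (2.66) and Cdc20 (2.08), so what these levels count is uncertain. Racgap1, the central spindle partner of Kif23, had 0.72 at day 6 and -2.01 at day 8, and Ect2 had 1.30 and -2.74. Ect2 was under 1 FPKM in the day 6 control (0.558), so for it the minimum itself fixed a higher knockdown value.

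Chromosome structure genes split. Top2a read 193 and 216 at day 0, 1.26 and 6.88 at day 6, 59.1 and 5.97 at day 8, and 5.67 and 3.84 in the USP10 table. Mki67, which coats mitotic chromosomes, read 96.1 and 114 at day 0, 0.629 and 2.72 at day 6, 46.7 and 2.82 at day 8, and 1.73 and 1.30 in the USP10 table. Being under 1 FPKM in the day 6 control, Mki67 had its higher knockdown value fixed by the minimum itself. Smc4 read 176 and 204 at day 0, 30.4 and 30.2 at day 6, 56.6 and 33.4 at day 8, and 41.2 and 42.1 in the USP10 table. Top2a and Mki67 had ratios like those of the cyclins, while Smc4 kept at least 30.2 FPKM in every column and was the highest member in 5 of the 6 columns in differentiation medium, all but the day 8 control, where Top2a was. Ncapd2, a non-SMC condensin subunit, kept 2.46 FPKM in the day 6 control and 6.91 in the day 8 knockdown.

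The opposite signs at day 6 and day 8 held gene by gene. Of 39 members past the minimum at both days, 38 were higher in the knockdown at day 6 and lower at day 8, and 30 were at least 2-fold both times. For 24 of the 39 the minimum itself fixed the sign at day 6. Of the 15 with at least 1 FPKM in both day 6 columns, 14 were higher at day 6 and lower at day 8, and 6 were at least 2-fold both times. The exception was Smc4. The day 6 and day 8 tables have no library in common by their labels, and by their labels or the methods they also differ in hairpins and the kind of control, where the sources conflict, and in when cells were infected, so an effect of the day cannot be told apart from these.

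The control columns themselves differed by more than some of the treatments. The day 6 control was lower than the day 0 control for all 40 members, by at least 8-fold for 39 of them (6.27% of all genes), with a median of 91.4-fold. The day 8 control was higher than the day 6 control for all 40, with 32 at least 8-fold higher (2.19% of all genes) and a median log2 ratio of 4.47. Mki67, at 0.629 FPKM in the day 6 control and 46.7 in the day 8 control, had a ratio of 74.3-fold. Housekeeping genes had median log2 ratios of -0.76 and 0.26 in the same 2 contrasts.

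The USP10 table has a day 6 control of its own, whose header carries the name of the wildtype day 6 column but whose values differ, so which library it was made from could not be mapped. Of 31 members past the minimum, 20 were at least 2-fold higher in it than in the day 6 control of the Huwe1 table (11.2% of all genes), with a median log2 ratio of 1.29. Only 15 of the 31 reached 1 FPKM in the day 6 control of the Huwe1 table. For the others the minimum itself fixed the sign. With at least 1 FPKM in both columns, the median was 0.61. Against the control of the USP10 table, the day 6 knockdown had a median log2 ratio of 0.36 over 39 members, with 8 at least 2-fold higher (13.0% of all genes). For members under 1 FPKM in that control, the minimum again fixed the sign. The knockdown was above both controls for 31 of 40 members and at least 2-fold above both for 9. It lay between them for 8 members, and Smc4 was below both. USP10 overexpression lay between the 2 controls for 24 members, above both for 15 and below both for 1, Ncapd2. Against the day 6 control of the Huwe1 table, USP10 overexpression had a median log2 ratio of 0.91 over 27 members, with 13 at least 2-fold higher (17.5% of all genes). This is the opposite sign to the -0.29 against its own control. Here too the minimum fixed the sign for all but the 15 members with at least 1 FPKM in the Huwe1-table control.

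**Figure D4:**
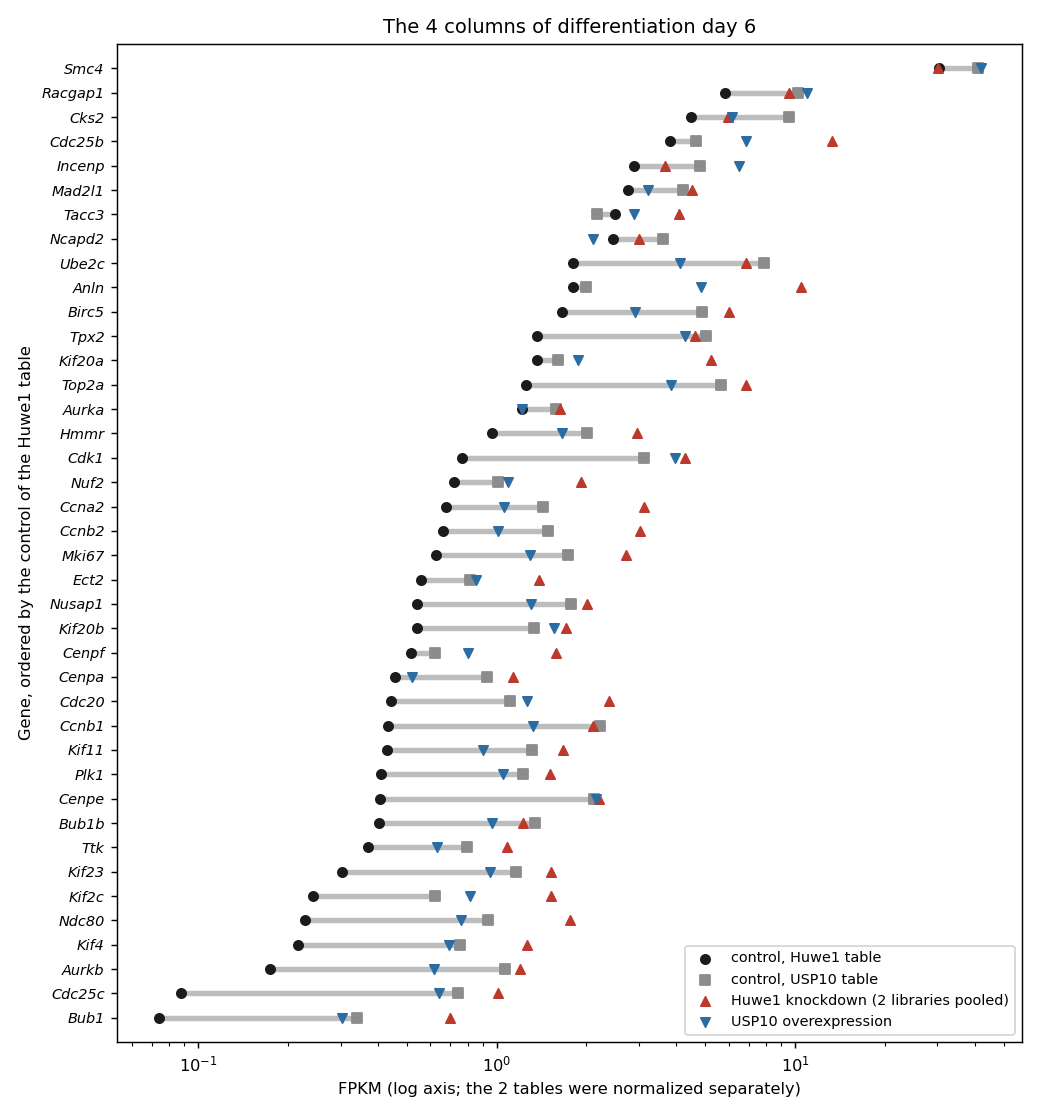
FPKM of each member on a log axis in the 4 day 6 columns, ordered by the control of the Huwe1 table, with a grey bar between the 2 controls. The day 6 knockdown lies above both controls for 31 members, and USP10 overexpression lies between the controls for 24.

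Few fragments stand behind the members in the day 6 controls, where their levels are low. The day 6 control of the Huwe1 table has the highest depth estimate and the control of the USP10 table the lowest of the 5 columns estimated. The estimated number of fragments behind a member had a median of 5111.5 in the day 0 control, 883.5 in the day 8 control, 79.5 in the day 6 control and 49 in the control of the USP10 table, with 8 and 14 members under 30 fragments in the last 2. For Bub1 the day 6 control value rests on about 8 fragments (exact Poisson interval 3.45 to 15.8).

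The other genes of the mitotic program were taken from a list of 76 that holds no member. At day 0, 0 of 76 were at least 2-fold different either way, where 1.69% of all genes were lower and 1.90% higher. Pttg1 (-0.35) and Cdca5 (-0.24) were lowest, and Psrc1 (0.88) and Ska1 (0.71) highest. At day 6, 46 reached 1 FPKM, of which 16 were at least 2-fold higher (17.6% of all genes) and 1 lower (13.4%), with a median log2 ratio of 0.56. Only 31 of the 46 reached 1 FPKM in the control. For the others, Pbk and Fam64a among them, the minimum itself fixed a higher knockdown value. Highest were Pbk, a mitotic kinase gene (0.211 to 1.86 FPKM), and Fam64a, at 3.08 and 3.05, while the spindle gene Spag5 was lowest at -1.68 and the CENP-A chaperone gene Hjurp followed at -0.38. At day 8, 54 of 75 were at least 2-fold lower (10.0% of all genes) and 0 higher (7.89%), with a median of -2.23. The ratios ran from -4.23 for Pbk and -4.11 for Depdc1a to 0.07 for Ncapd3 and 1.00 for Psrc1. With USP10 overexpression, 5 of 46 were at least 2-fold lower, a share near the 10.0% of all genes, and 0 higher, with a median of -0.23, led by Spag5 (-1.85) and Cit (-1.56), and Mad1l1 (0.82) and Cenpt (0.81) were highest.

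S phase genes had medians of the same sign as the members in the 3 Huwe1 comparisons. Their list of 44 had median log2 ratios of 0.17 at day 0, 0.59 at day 6, -0.90 at day 8 and 0.07 with USP10. At day 6, 14 of 38 were at least 2-fold higher (17.6% of all genes), led by the replication factor gene Gins2 (3.27) and the maintenance methylation gene Uhrf1 (3.24). At least 2-fold lower was 1 (13.4% of all genes), the origin recognition gene Orc6 (-2.05), before Rpa2 (-0.83). Only 30 of the 38 reached 1 FPKM in the control. For the others, Gins2 and Uhrf1 among them, the minimum itself fixed a higher knockdown value. At day 8, 20 of 44 were at least 2-fold lower (10.0% of all genes), led by Uhrf1 (-3.19) and Tk1 (-3.09), with Cdt1 (0.04) and Pold1 (0.01) highest. At day 0 the ends of the list were Pold1 (-0.30) and Rfc2 (-0.18) against Cdt1 (0.57) and Gins2 (0.52), and with USP10 they were Orc6 (-1.38) and Cdc45 (-0.87) against Pold1 (1.16) and Rfc2 (1.02). Members had the larger median at day 6 and day 8, but no test of that difference can be made with these columns. At day 6 the minimum fixed the sign for 24 of the 39 members, and over the other 15 the median was 0.72.

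**Figure D5:**
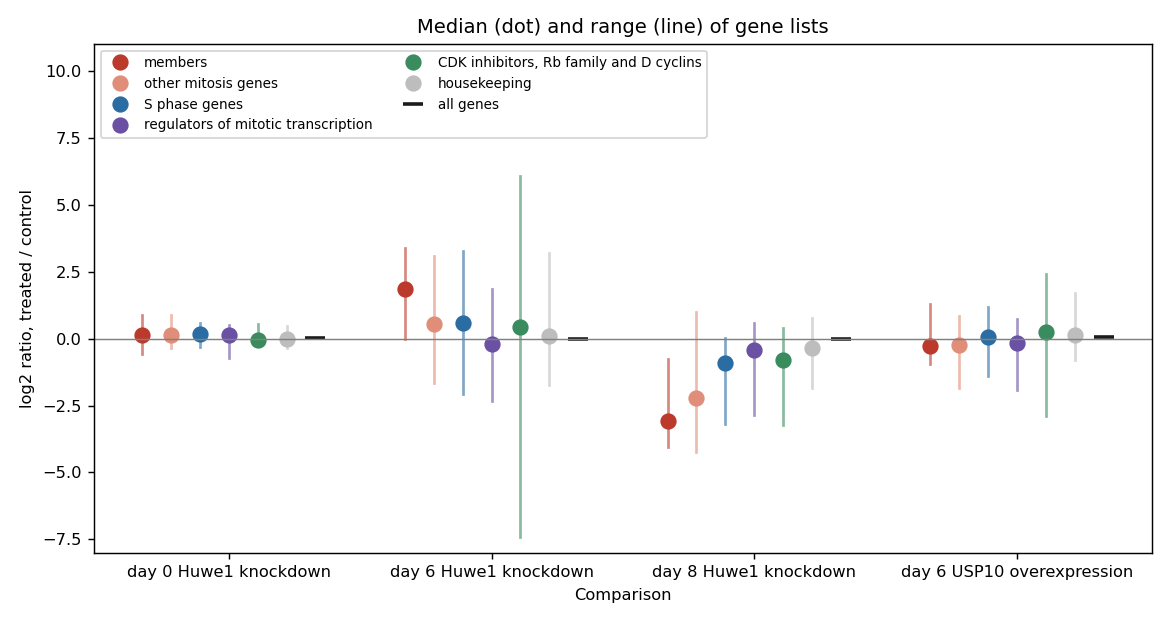
Median (dot) and lowest to highest value (line) of the log2 ratio of treated to control for 6 gene lists in the 4 comparisons, with the median of all genes as a dash. At day 8 the medians were -3.09 for members, -2.23 for other mitosis genes, -0.90 for S phase genes and -0.35 for housekeeping genes.

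Regulators of mitotic transcription come next. Foxm1, encoding a factor that activates G2 and mitotic genes, read 37.6 and 41.2 at day 0, 0.395 and 1.20 at day 6, 8.27 and 1.74 at day 8, and 0.534 and 0.869 in the USP10 table. Mybl2, encoding B-Myb, read 18.1 and 20.1 at day 0, 0.0783 and 0.370 at day 6, 2.12 and 0.348 at day 8, and 0.602 and 0.329 in the USP10 table. Both were higher in the day 6 knockdown and lower in the day 8 knockdown than in their controls, like most members. However, Mybl2 was under 1 FPKM in both day 6 columns. Foxm1 reached 1 FPKM there in the knockdown only, so for it the minimum itself fixed a higher knockdown value.
Lin9, a core subunit of MuvB, read 14.9 and 18.7 at day 0, 2.73 and 2.53 at day 6, 5.81 and 4.45 at day 8, and 3.33 and 2.73 in the USP10 table, a narrower range. Rbl1, the p107 pocket protein, read 37.5 and 32.8 at day 0, 2.95 and 6.54 at day 6, 8.06 and 4.02 at day 8, and 4.82 and 5.74 in the USP10 table. E2f1, an activating E2F, read 11.5 and 13.6 at day 0, 3.29 and 11.7 at day 6, 25.1 and 19.6 at day 8, and 6.63 and 11.1 in the USP10 table, and was higher in the day 8 control than at day 0. The list of 22 regulators had medians of 0.15, -0.20, -0.41 and -0.18 in the 4 comparisons in order. At day 6, 11 of the 20 past the minimum were below 0, with E2f2 (-2.32) the lowest. At least 2-fold lower were 5 (13.4% of all genes), and 3 were at least 2-fold higher (17.6%).

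Of the genes that brake or start the cell cycle, Cdkn1a, the p21 inhibitor of cyclin-dependent kinases, read 77.8 and 80.7 at day 0, 491 and 201 at day 6, 522 and 200.4 at day 8, and 286 and 248 in the USP10 table. It was lower in the knockdown than in control at both day 6 and day 8. Ccnd1, encoding cyclin D1, read 88.4 and 129 at day 0, 1.03 and 69.1 at day 6, 4.94 and 4.47 at day 8, and 10.4 and 55.4 in the USP10 table, so it was higher in both treated columns of day 6. Ccnd3, the D cyclin of muscle differentiation, read 41.2 and 34.4 at day 0, 67.9 and 92.6 at day 6, 168 and 47.7 at day 8, and 63.6 and 108 in the USP10 table. The list of 15 CDK inhibitors, Rb family genes and D cyclins had medians of -0.07, 0.45, -0.80 and 0.25.

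Markers of cell type differed along with these results, and their part in them was not tested. The 19 myoblast and myotube markers summed to 29030 FPKM in the day 6 control and 6545 in its knockdown. At least 2-fold lower were 16 of them (13.4% of all genes). At day 8 they summed to 22453 and 5163, with 15 lower (10.0% of all genes). In the USP10 table they summed to 12950 and 6730, with 12 lower (10.0% of all genes). The control with more mitotic RNA at day 6 thus also had less muscle RNA. Ckm, the muscle creatine kinase, read 0 and 0.0990 at day 0, 219 and 36.2 at day 6, 306 and 37.2 at day 8, and 78.1 and 16.2 in the USP10 table. Myog read 0.164 and 0.153 at day 0, 619 and 27.1 at day 6, 392 and 148 at day 8, and 305 and 28.8 in the USP10 table. Of the 19 markers, 17 had a log2 ratio below 0 at day 6 and 16 at day 8. The rest were Myf5, Cdh15 and, at day 8 only, Pax7 (0.57). Myf5 read 3.51 and 18.5 at day 6, 7.36 and 8.14 at day 8, and 4.79 and 20.2 in the USP10 table. Cdh15 read 121 and 121 at day 6, and 165 and 231 at day 8. Most muscle markers were thus lower in the knockdown at both days. Most mitotic genes were higher at day 6 and lower at day 8.
The 10 fibroblast and mesenchymal markers summed to 1116 and 9508 FPKM at day 6. All 8 past the minimum were at least 2-fold higher there (17.6% of all genes). They summed to 2534 and 1743 at day 8, and to 3539 and 7419 in the USP10 table. At day 0 the muscle markers summed to 456 and 240 FPKM, and the mesenchymal markers to 3841 and 4045. Of the 10 muscle markers past the minimum there, 3 were at least 2-fold lower (1.69% of all genes). Adipocyte markers summed to 7.90 to 19.6 FPKM per column, with Adipoq and Lep at 0 in all 8, and the lipid carrier gene Fabp4 read 0.348 and 4.68 at day 6 and 0.535 and 3.84 in the USP10 table. Endothelial and immune markers summed to 1.52 and 8.20 FPKM at day 6, to 5.28 and 8.96 in the USP10 table, and to 0.988 to 14.3 over all columns, with Emr1 at 0 in all 8. Of these the one that differed most at day 6 was the endothelial cadherin gene Cdh5, which read 13.5 and 11.2 at day 0, 0.0241 and 6.83 at day 6, 0.0134 and 0.00868 at day 8, and 0.278 and 6.81 in the USP10 table.

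Among the members with a promoter sequence, the ratios hardly followed the number of CCAAT boxes. At day 6 the median log2 ratio was 1.92 for 17 members with at least 2 boxes, 1.86 for 7 with 1 and 1.84 for 9 with none. At day 8 these were -3.30, -2.60 and -3.30. These medians were taken without the minimum, so Bub1 was counted at day 6 though under 1 FPKM in both columns. In the day 6 control the groups had low median levels, at 0.629, 0.411 and 0.719 FPKM in the same order. Anln, which has no match in its printed bases, had ratios of 2.54 and -3.30, close to Top2a (2.44 and -3.30), which has the most.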

How the data were processed

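RNA from 10 C2C12 samples was measured by directional mRNA sequencing (oligo(dT) selection, ScriptSeq v2 kit, Illumina HiSeq). The authors mapped reads with Tophat and computed FPKM with Cuffdiff, and the submitters' processing notes name Bowtie2, Cuffdiff and mm10. Versions, the annotation and strand settings are not given in the sources used here. The deposited FPKM tables give 1 value per condition, with knockdown libraries pooled. The tables also hold the authors' own fold changes, test scores, p-values and q-values, which were not used.

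Log2 ratios were computed as treated over control with 0.01 FPKM added to each, over genes that reached 1 FPKM in either column, and understate changes of low genes. Medians by number of CCAAT boxes were taken without that minimum. Genes at least 2-fold or 8-fold changed were counted beside the same share of all genes. No test was possible with 1 value per condition, and samples were grouped by their GEO titles. The members and the 9 other gene lists were chosen with earlier results of these data known. All members were accounted for by role. Values in all 8 columns were given for 18 members set by rule, with the 3 largest and 3 smallest ratios of each comparison, set regulators and markers, and the 2 largest changes each way of the other mitosis and S phase lists.

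Depth was estimated from genes with 1 transcript of at least 1500 bases, and fragments per gene from the longest protein-coding transcript in GENCODE M21 (GRCm38), with exact Poisson intervals at 95%. All 40 listed loci overlapped their GRCm38 gene. The exons of 9 members share bases with another protein-coding gene, and Ccnb1, Ccnb2 and Kif4 have pseudogenes. Promoters came from RefSeq (GRCm38.p6), with no sequence analysed here for 7 members. The scripts were tested on simulated data. Python 3.11.15, numpy 2.4.6, pandas 2.3.3, scipy 1.17.1 and matplotlib 3.10.9 were used. Alternatives were pseudocounts of 0.1 and 1, no minimum, a minimum of 5 FPKM or of 1 FPKM in both columns, centring on the median gene, rescaling columns to an equal sum, genes with status OK or NOTEST only, and the whole promoter window.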

Additional observations from a re-analysis of the deposited data

Results flagged for a closer look

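The effect of Huwe1 knockdown on the members had opposite signs at 2 time points. The median log2 ratio of the members at day 8 minus that at day 6 was -4.95, with 38 of the 39 members measured at both days higher at day 6 and lower at day 8. For 24 of the 39 the minimum fixed the sign at day 6, and of the 15 with at least 1 FPKM in both day 6 columns, 14 had these signs. The day 6 median of 1.86 was 0.72 over those 15, and the day 6 knockdown stood at 0.36 over the control of the USP10 table. The difference was not tested, since each time point has 1 value per condition. By the labels the hairpins and the kind of control differ between the tables as well, and by the methods the time of infection does.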

How the results depend on the processing

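No paired analysis was possible because the tables hold no replicate values, and for the same reason no replicate could be left out. No result changed direction under the alternatives listed above. The choice of day 6 control was not among them. The median log2 ratio of USP10 overexpression had opposite signs against its own control and against that of the Huwe1 table, as given above. With a pseudocount of 1 in place of 0.01, 17 members were at least 2-fold higher in the day 6 knockdown and 0 with USP10 overexpression, and the median log2 ratio of members was 0.91 at day 6 and -2.41 at day 8. That pseudocount also gave medians of -5.09 for the day 6 over the day 0 control, 3.03 for the day 8 over the day 6 control, and 0.66 for the USP10-table control over the day 6 control, where members sit near or below 1 FPKM. With a minimum of 5 FPKM, 6 members were at least 2-fold higher in the day 6 knockdown (of 9 left) and 0 with USP10 (of 8 left). With at least 1 FPKM in both columns, 7 of 15 members were at least 2-fold higher in the day 6 knockdown, with a median of 0.72, and the same 3 control contrasts gave -4.75, 2.74 and 0.61. The share of member promoters with CHR letters was 76.5% in the whole window. These are the 15 values that moved beyond 1.5-fold (5 percentage points for shares), and the other 96 stayed within those limits. In the day 6 controls of the Huwe1 and USP10 tables, 8 and 14 members rest on under 30 estimated fragments.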
